A study of Homo sapiens with 6 samples.

Results

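Amino acid transporters of the plasma membrane and the lysosome were examined in HepG2 cells with and without knockdown of KIF11, a kinesin motor of the mitotic spindle. The genes were taken by symbol from 7 solute carrier families, namely SLC1A, SLC3A, SLC6A, SLC7A, SLC36A, SLC38A and SLC43A. The rule found 60 of the 20030 genes in the count table. It also took in SLC7A6OS, which is named for its place opposite SLC7A6 and is not a transporter. Of the 60 genes, 36 had enough reads to be tested, 24 did not, and 12 of those 24 had 0 counts in every library.

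HepG2 is an established human hepatoma line. Poly(A) RNA was sequenced from 3 libraries of cells carrying a control short hairpin RNA (sh-ctrl) and 3 libraries of cells carrying a hairpin against KIF11 (sh-KIF11), and the hairpins were delivered by lentivirus for stable knockdown. The labels did not say whether the 3 libraries of a group came from separate cultures, so the p-values measure the spread between these libraries, which may be technical, and they name no second hairpin or clone. The libraries held 18167773 to 19583282 counts. The hepatocyte markers were expressed in both groups, as the label of the line requires. TTR did not reach an adjusted p under 0.05 (log2 fold change -0.13). The other 8 of the 9 markers were lower in sh-KIF11 at that level, as were 34.7% of all tested genes. The summed level of the 9 markers was 32203 to 33763 CPM (read counts scaled to library size, with TMM, the trimmed mean of M-values) in sh-ctrl and 14360 to 15499 CPM in sh-KIF11, with ALB at a log2 fold change of -1.49, and their part in the transporter results was not tested. None of the 5 fibroblast markers had over 7 counts in a library. Of the leukocyte markers, LST1 had 0 counts throughout and PTPRC and CD3E had at most 3, whereas CD68 was expressed and lower at -0.90. Of the endothelial markers, CDH5 had at most 2 counts, PECAM1 was not called and VWF was higher at 1.01. KIF11 itself had 111, 116 and 121 CPM in sh-ctrl and 72.2, 71.4 and 62.9 CPM in sh-KIF11, so the knockdown left 0.594 of the control mean (adjusted p = 4.22e-15, quasi-likelihood test of edgeR, Benjamini-Hochberg adjusted over all tested genes, as for every adjusted p here).

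Cells take up amino acids through carriers that differ in what drives them. SLC1, SLC6 and SLC38 carriers use the sodium gradient, some SLC36 carriers use protons, and SLC43 carriers let neutral amino acids pass down their gradient. Most SLC7 carriers exchange one amino acid for another and work as light chains that need an SLC3 heavy chain to reach the membrane, whereas the cationic SLC7 carriers work alone. Several SLC6 members carry neurotransmitters, osmolytes or creatine in place of amino acids of protein. In hepatoma cells glutamine and leucine uptake is commonly attributed to SLC1A5 and to the SLC7A5 and SLC3A2 pair, cystine uptake feeds glutathione through SLC7A11, and SLC38A9 reports lysosomal arginine to mTORC1.

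In short windows around their RefSeq start sites, several carriers known as targets of amino acid shortage or oxidative stress hold the letters of the elements described for those responses. The windows run from 250 bases before to 50 bases after the annotated start, and 45 of the 60 genes had one. The motif TGATGNAA, the core of the C/EBP-ATF element, was searched on both strands and was present in 4 of the 45 windows and in 3.62% of all 35116 RefSeq windows. The motif TGACNNNGC, the core of the antioxidant element, was present in 5 of 45 and in 13.3% of all, and the E-box CACGTG in 6 of 45 and in 7.26% of all. The sequences below are shown because SLC3A2, SLC7A1 and SLC38A1 hold the first motif and SLC7A5, the light chain partner of SLC3A2, holds the other 2, and all 4 genes were called lower in sh-KIF11 with TMM, whereas with library totals alone SLC7A1 and SLC38A1 turned and SLC3A2 was not called. They are given 5′ to 3′ on the strand of the gene in build GRCh38.p14, with every match in capitals, and no matches overlap each other. The 4 genes were picked by motif and by call together. Of the 21 called genes with a window, 3 held TGATGNAA, 3 held TGACNNNGC and 4 held the E-box. The E-box also lies in the windows of SLC38A5 and SLC43A1, called lower, SLC38A7, called higher, and SLC1A7 and SLC6A16, not called. SLC7A6, not called, and SLC7A7, not tested, hold TGACNNNGC, and SLC1A3, not tested, holds TGATGNAA. A match is a run of letters, and no binding was measured. The SLC3A2 window lies at chr11:62881449-62881748 on the plus strand. The windows of SLC7A1 at chr13:29595639-29595938, SLC38A1 at chr12:46266467-46266766 and SLC7A5 at chr16:87869458-87869757 are all on the minus strand. The SLC3A2 and SLC38A1 windows lie inside their genes (chr11:62856109-62888860 and chr12:46183063-46269043), and other starts of these genes were not searched.
SLC3A2: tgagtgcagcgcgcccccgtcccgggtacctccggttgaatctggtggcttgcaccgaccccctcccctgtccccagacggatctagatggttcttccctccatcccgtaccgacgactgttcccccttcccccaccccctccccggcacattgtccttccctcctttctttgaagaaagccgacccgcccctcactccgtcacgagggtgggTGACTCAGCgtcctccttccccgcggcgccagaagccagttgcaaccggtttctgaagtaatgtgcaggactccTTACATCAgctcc
SLC7A1: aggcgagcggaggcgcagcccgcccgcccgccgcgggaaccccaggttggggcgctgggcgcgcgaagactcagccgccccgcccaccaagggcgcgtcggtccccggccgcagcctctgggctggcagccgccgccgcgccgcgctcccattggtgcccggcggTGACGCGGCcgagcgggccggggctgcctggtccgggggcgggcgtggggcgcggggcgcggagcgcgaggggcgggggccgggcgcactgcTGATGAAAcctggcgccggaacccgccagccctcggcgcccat
SLC38A1: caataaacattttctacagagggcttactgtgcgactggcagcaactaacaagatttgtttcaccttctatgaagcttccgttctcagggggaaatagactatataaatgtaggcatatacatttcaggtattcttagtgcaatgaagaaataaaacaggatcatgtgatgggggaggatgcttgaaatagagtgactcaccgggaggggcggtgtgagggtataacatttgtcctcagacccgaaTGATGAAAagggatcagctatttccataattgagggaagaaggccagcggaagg
SLC7A5: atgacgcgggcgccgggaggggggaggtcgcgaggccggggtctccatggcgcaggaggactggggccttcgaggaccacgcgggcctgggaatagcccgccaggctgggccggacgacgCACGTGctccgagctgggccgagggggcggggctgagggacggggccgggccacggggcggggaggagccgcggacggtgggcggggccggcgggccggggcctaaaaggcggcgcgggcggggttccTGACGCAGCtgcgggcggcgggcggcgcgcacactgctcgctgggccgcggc

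Of the 36 tested genes, including SLC7A6OS, 27 were called at an adjusted p under 0.05, 19 of them lower and 8 higher in sh-KIF11. Without SLC7A6OS, 27 of 35 were called (77.1%), with a median log2 fold change of -0.25. The background was high, since 69.1% of all 12369 tested genes were called, 34.7% lower and 34.4% higher, and the 27 called genes, 75% of those tested, were near that share. The split moved with the scaling. With library totals alone 12 of the 36 were called higher and 14 lower, against 6621 and 2373 of all tested genes, and with limma on log2(FPKM + 1) 12 were called higher and 11 lower, against 5635 and 2596 of all tested genes. For 28 of the 36 all sh-ctrl values lay on one side of all sh-KIF11 values, as for 71.2% of all tested genes. The median log2 fold change was -0.24 over the 36 genes and 0.00 over all tested genes. Changes of at least 2-fold were called for 6 genes, against 11.7% of all tested genes. All 6 were lower, a direction that 3.52% of all tested genes took at this size, and 0 were higher, against 8.13% of all tested genes. SLC7A11 passed 2-fold as a higher gene with upper-quartile scaling (1.01), library totals alone (1.16) and limma on log2(FPKM + 0.1) (1.03), and with totals alone SLC6A9 (-0.94) and SLC38A5 (-0.90) stayed short of 2-fold. In bulk RNA, fewer cells of a kind and less RNA per cell cannot be told apart.

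**Figure D1:**
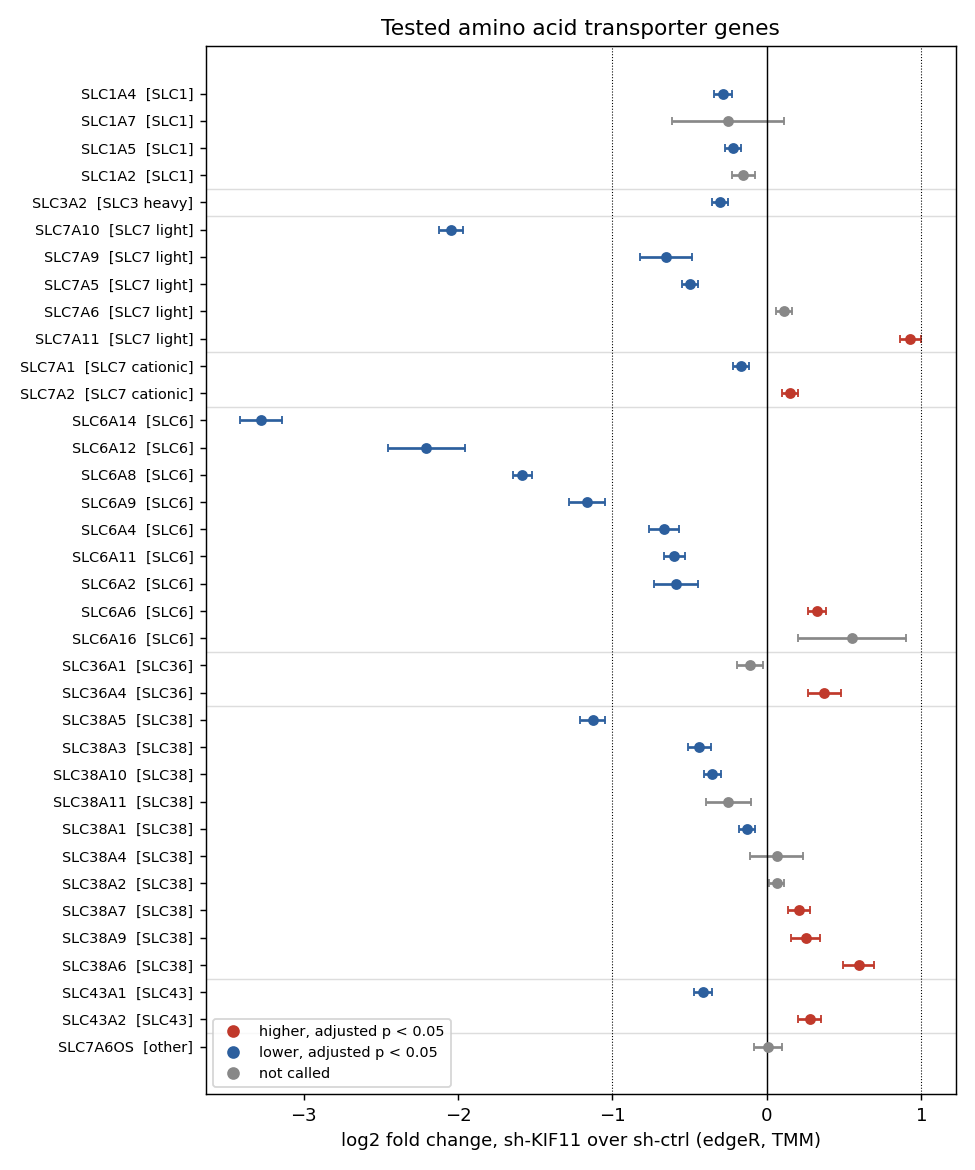
Log2 fold change of sh-KIF11 over sh-ctrl for the 36 tested genes, ordered by transporter family. Points are edgeR estimates and bars their standard errors, dotted lines mark 2-fold, and the 6 genes beyond the lower line are SLC6A14, SLC6A12, SLC7A10, SLC6A8, SLC6A9 and SLC38A5.

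A few genes held most of the transporter mRNA per length. By FPKM (fragment counts scaled by transcript length and library size, the only values here that can be compared between genes), SLC38A2, a sodium-coupled carrier of small neutral amino acids, stood highest, with a mean of 121 ± 4.31 (SD, n = 3) in sh-ctrl against 139 ± 1.98. SLC7A5, the large neutral amino acid carrier LAT1, followed at 81.5 ± 5.30 and 66.6 ± 2.26. SLC3A2, the heavy chain CD98, had 61.7 ± 2.97 and 59.6 ± 2.88, and the order of these 3 genes was the same in both groups. SLC1A5 (35.2 ± 2.65 in sh-ctrl) and SLC38A10 (29.4 ± 2.35) came next. In sh-ctrl the creatine carrier SLC6A8 stood in sixth place at 24.0 ± 2.23, above SLC7A1 at 18.1 ± 0.955, SLC7A10 at 17.5 ± 1.30, SLC43A1 at 17.1 ± 0.648 and SLC1A4 at 15.6 ± 1.03, and the levels of SLC7A1, SLC7A10 and SLC43A1 did not differ beyond their SDs. By the mean over all 6 libraries the 10 highest included SLC7A2, at 15.1 ± 0.445 in sh-ctrl and 18.6 ± 0.907 in sh-KIF11. By that mean SLC7A10 stood only in place 13. The 5 highest genes made up 60.5% to 64.6% of the summed FPKM of all 60 genes in each library. SLC38A2 alone held 21.1% to 23.7% in sh-ctrl and 26.6% to 27.6% in sh-KIF11, without overlap, while SLC6A8 went from 3.96% to 4.82% in sh-ctrl to 1.79% to 1.81%. All 60 genes together took 0.276% to 0.290% of the raw counts of a library, and the groups overlapped. The summed FPKM was 524 to 549 in sh-ctrl and 504 to 516 in sh-KIF11, and the sum after TMM scaling was 2997 to 3138 CPM and 2607 to 2635 CPM, neither with overlap.

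**Figure D2:**
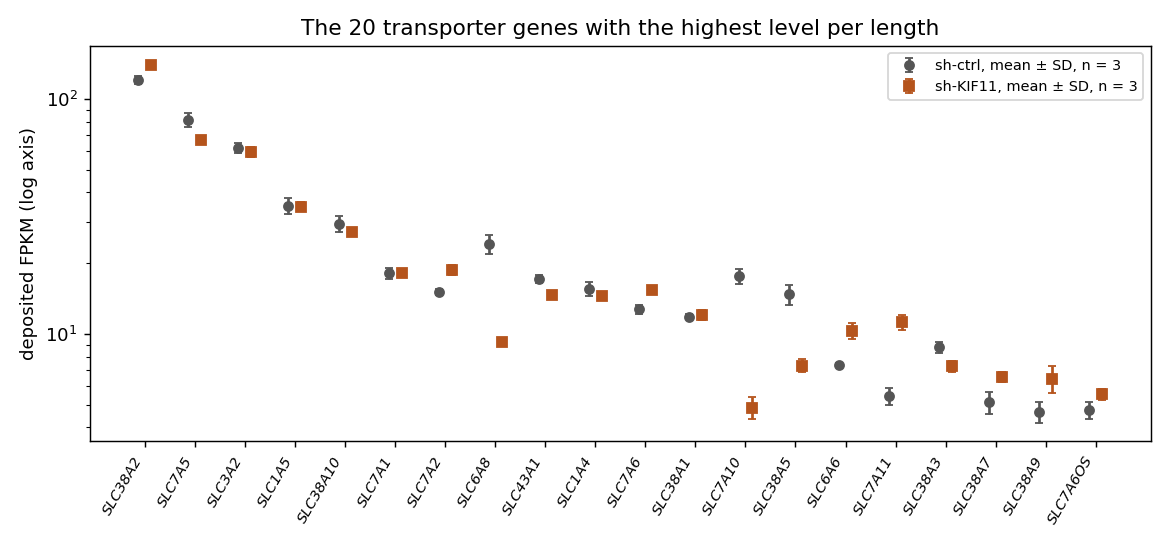
Deposited FPKM on a log axis for the 20 highest of the 60 genes, as mean ± SD of 3 libraries per group and ordered by the mean over all 6 libraries. SLC38A2 leads in both groups, and SLC6A8, SLC7A10 and SLC38A5 show the widest gaps downward from sh-ctrl to sh-KIF11, with SLC7A11 the widest upward.

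SLC3A2, the heavy chain that carries most light chains to the membrane, had 197, 188 and 181 CPM in sh-ctrl and 147, 155 and 156 CPM in sh-KIF11. The groups did not overlap, and SLC3A2 was called lower at a log2 fold change of -0.30 ± 0.05 (SE, adjusted p = 1.51e-06 by edgeR), a call that was lost when libraries were scaled by their totals alone (-0.07, adjusted p = 0.206). It was also lost with limma on log2(FPKM + 1) (-0.05, adjusted p = 0.393) and log2(FPKM + 0.1) (-0.05, adjusted p = 0.392). The other heavy chain, SLC3A1, which partners SLC7A9 in kidney and gut, was not tested, with 11, 2 and 9 counts in sh-ctrl against 7, 4 and 7.

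The 5 tested light chains moved in both directions, with 3 called lower, 1 higher and 1 not called. Over all tested genes 34.7% were called lower and 34.4% higher. SLC7A10 (Asc-1, a carrier of serine, glycine and alanine, at chr19:33208664-33225850) had 72.4, 71.1 and 63.9 CPM in sh-ctrl and 18.3, 17.1 and 14.8 CPM in sh-KIF11. Every sh-KIF11 library lay far under every sh-ctrl library, 4.12-fold lower by the means (log2 fold change -2.04 ± 0.08, adjusted p = 7.28e-25 by edgeR). SLC7A5 had 619, 572 and 539 CPM against 395, 410 and 420 CPM. Its groups were also apart, and the fall was smaller than for SLC7A10, at -0.50 ± 0.05 (adjusted p = 1.56e-11 by edgeR). SLC7A9, the b0,+AT carrier of cystine and cationic amino acids, had 4.82, 6.37 and 7.47 CPM against 3.99, 4.25 and 3.60 CPM. Here the lowest sh-ctrl library came close to the highest sh-KIF11 library, and the call (-0.65 ± 0.17, adjusted p = 0.000827 by edgeR) was lost with limma on FPKM, at adjusted p = 0.172 with a pseudocount of 1 and 0.190 with 0.1.

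SLC7A11 (xCT, the cystine and glutamate exchanger, at chr4:138164097-138242349) was the light chain that rose. It had 44.0, 38.4 and 46.3 CPM in sh-ctrl and 75.3, 82.6 and 86.9 CPM in sh-KIF11, with the groups clearly apart. The rise was 1.90-fold by the means (log2 fold change 0.93 ± 0.07, adjusted p = 8.61e-16 by edgeR) and was the highest log2 fold change among the 36 tested genes. The antisense gene SLC7A11-AS1 shares 865 exon bases with it in GENCODE 29, and the strand setting of the counting was not given in the sources used here, so reads of the pair cannot be told apart. SLC7A6 (y+LAT2) had 94.3, 87.3 and 90.1 CPM against 99.98, 94.9 and 98.4 CPM. These values did not overlap but were close, and SLC7A6 was not called at 0.11 ± 0.05 (adjusted p = 0.0641 by edgeR). It was called higher with upper-quartile scaling (0.19, adjusted p = 0.00186), library totals alone (0.34, adjusted p = 3.25e-07), limma on log2(FPKM + 1) (0.25, adjusted p = 0.00125) and log2(FPKM + 0.1) (0.27, adjusted p = 0.00113), a minimum of 10 counts in every library (0.14, adjusted p = 0.0229), and without the first sh-ctrl library (0.15, adjusted p = 0.0264). SLC7A6 shares 3371 exon bases with SLC7A6OS on the opposite strand, which was not called either (log2 fold change 0.01) except with library totals alone (0.24, adjusted p = 0.0152) and limma on log2(FPKM + 1) (0.19, adjusted p = 0.0319) and log2(FPKM + 0.1) (0.22, adjusted p = 0.0302). Among untested light chains, SLC7A7 had 2, 9 and 1 counts in sh-ctrl against 12, 6 and 7.

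**Figure D3:**
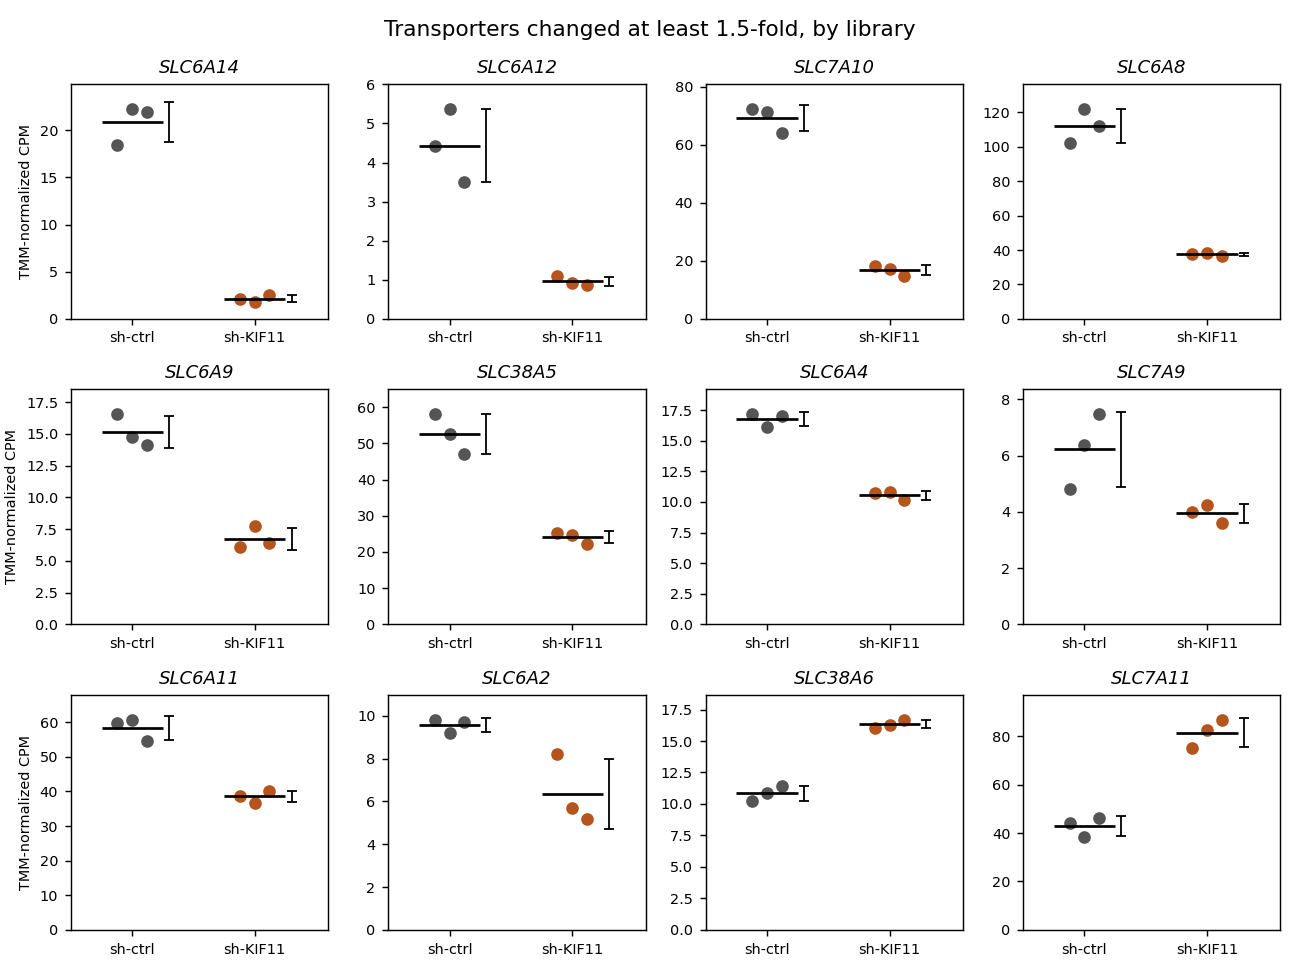
TMM-scaled CPM by library for the 12 genes called with at least a 1.5-fold change, with black lines for group means and side bars for ± SD of 3 libraries. Points of the groups do not overlap in any panel, 10 genes lie lower in sh-KIF11, and SLC38A6 and SLC7A11 lie higher.

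The 2 tested cationic carriers, which take up arginine and lysine, were called in opposite directions with small changes. SLC7A1 (CAT1) had 169, 162 and 153 CPM in sh-ctrl and 141, 148 and 142 CPM in sh-KIF11, or a change of -0.17 ± 0.05 (adjusted p = 0.00365 by edgeR) on the log2 scale that turned to 0.06 with library totals alone and to 0.0085 with limma on log2(FPKM + 1). SLC7A2 (CAT2), the main cationic carrier of liver, had 110, 114 and 119 CPM against 134, 127 and 119 CPM, so that the highest sh-ctrl and the lowest sh-KIF11 library nearly touched. SLC7A2 was called higher at 0.15 ± 0.05 (adjusted p = 0.0134 by edgeR), and the call was lost without the first sh-ctrl library (0.13, adjusted p = 0.0516) and without the first sh-KIF11 library (0.10, adjusted p = 0.131).

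The SLC6A family held 19 of the 60 genes, of which 6 had 0 counts throughout and 9 were tested. It gave 4 of the 6 falls of at least 2-fold, a change called for 3.52% of all tested genes. Of its 9 tested genes 7 were called lower, 1 was called higher and 1 was not called. Over all tested genes 34.7% were called lower and 34.4% higher. The median log2 fold change of the 9 genes was -0.67. SLC6A14 (ATB0,+, a broad carrier of neutral and cationic amino acids, at chrX:116436606-116461458) had 18.4, 22.3 and 21.9 CPM in sh-ctrl and 2.14, 1.84 and 2.48 CPM in sh-KIF11. In raw counts these were 328, 402 and 370 against 43, 38 and 49, so the fall to a 9.68-fold lower mean rests on 38 to 49 reads in each sh-KIF11 library (log2 fold change -3.27 ± 0.14, adjusted p = 8.65e-24 by edgeR). It was the lowest fold change of the 36 tested genes.

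SLC6A8, the creatine carrier at chrX:153687926-153696593, had 102, 122 and 112 CPM in sh-ctrl and 37.4, 38.2 and 36.6 CPM in sh-KIF11. The sh-KIF11 libraries lay close together and 2.997-fold lower (log2 fold change -1.58 ± 0.06, adjusted p = 1.53e-24 by edgeR). A near-identical pseudogene copy, SLC6A10P, is annotated in GENCODE 29, so the assignment of its reads is uncertain. SLC6A12 (BGT1, a betaine and GABA carrier, at chr12:183848-214157) had 4.43, 5.37 and 3.50 CPM against 1.10, 0.918 and 0.862 CPM. Its groups did not overlap, and its standard error was the widest of the 6 genes that changed at least 2-fold (-2.20 ± 0.25, adjusted p = 2.39e-10 by edgeR). SLC6A9 (GlyT1, a glycine carrier) had 16.5, 14.8 and 14.1 CPM against 6.08, 7.73 and 6.39 CPM, again without overlap (-1.17 ± 0.12, adjusted p = 9.87e-12 by edgeR).

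Carriers of neurotransmitters were also detected in these hepatoma cells and were lower in sh-KIF11. SLC6A11 (GAT3, for GABA) had 59.8, 60.7 and 54.5 CPM in sh-ctrl and 38.7, 36.8 and 40.1 CPM in sh-KIF11 (-0.60 ± 0.07, adjusted p = 2.99e-10 by edgeR). SLC6A4, the serotonin carrier, had 17.2, 16.1 and 17.0 CPM against 10.7, 10.8 and 10.1 CPM (-0.67 ± 0.10, adjusted p = 1.37e-07 by edgeR). The groups were apart for both genes. SLC6A2, the noradrenaline carrier, had 9.81, 9.20 and 9.72 CPM against 8.22, 5.70 and 5.17 CPM, with the first sh-KIF11 library nearer to sh-ctrl than the other 2. Its call (-0.59 ± 0.14, adjusted p = 0.000295 by edgeR) was lost with limma on FPKM, at adjusted p = 0.0565 with a pseudocount of 1 and 0.0647 with 0.1.

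SLC6A6, the taurine carrier, was the SLC6A gene that rose, from 79.1, 78.8 and 78.0 CPM to 91.1, 107 and 97.2 CPM (0.32 ± 0.06, adjusted p = 3.79e-06 by edgeR). Its 3 sh-ctrl libraries were nearly equal and all lay under sh-KIF11. SLC6A16, an orphan carrier, had 0.533 to 1.07 CPM in sh-ctrl and 0.918 to 1.30 CPM in sh-KIF11, overlapped and was not called, except as higher with library totals alone (0.78, adjusted p = 0.0423) and limma on log2(FPKM + 1) (0.13, adjusted p = 0.0470) and log2(FPKM + 0.1) (0.79, adjusted p = 0.0251). SLC6A13 had 5, 1 and 0 counts in sh-ctrl against 0, 6 and 1. SLC6A19, the gut and kidney carrier of neutral amino acids, had 2, 1 and 2 counts against 5, 1 and 5. A difference in SLC6A13 and SLC6A19 was not detectable at this depth, where 3 counts, the limit that a count of 0 allows, correspond to 0.145 to 0.178 CPM.

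The SLC38A family, sodium-coupled carriers of glutamine and other neutral amino acids, had 10 tested genes, with 4 called lower, 3 called higher and 3 not called. The 70% called were near the 69.1% of all tested genes. SLC38A2 (SNAT2), the most abundant transporter by FPKM, had 447, 467 and 497 CPM in sh-ctrl and 499, 486 and 489 CPM in sh-KIF11. The groups overlapped, and it was not called at 0.06 ± 0.05 (adjusted p = 0.248 by edgeR), but it was called higher without the third sh-ctrl library (0.10, adjusted p = 0.0158), with upper-quartile scaling (0.14, adjusted p = 0.00951), with library totals alone (0.29, adjusted p = 7.63e-07) and with limma on log2(FPKM + 1) (0.20, adjusted p = 0.00125) and log2(FPKM + 0.1) (0.20, adjusted p = 0.00121). SLC38A1 (SNAT1) had 154, 162 and 162 CPM against 140, 146 and 152 CPM. The gap between the groups was narrow, and the call at -0.13 ± 0.05 (adjusted p = 0.0247 by edgeR) turned to 0.10 with library totals alone. It was lost without the second sh-ctrl library (-0.11, adjusted p = 0.114), the first sh-KIF11 library (-0.10, adjusted p = 0.134) or the second sh-KIF11 library (-0.13, adjusted p = 0.0707).

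SLC38A5 (SNAT5, a system N carrier of glutamine, asparagine and histidine) had 58.0, 52.5 and 47.1 CPM in sh-ctrl and 25.2, 24.7 and 22.2 CPM in sh-KIF11. It was 2.19-fold lower without overlap (-1.13 ± 0.08, adjusted p = 3.22e-16 by edgeR). SLC38A3 (SNAT3), the system N carrier of hepatocytes, had 41.1, 43.7 and 40.9 CPM against 31.2, 29.4 and 32.2 CPM (-0.44 ± 0.07, adjusted p = 1.41e-06 by edgeR), and the groups were again apart. SLC38A4 (SNAT4), the system A carrier that marks liver, stood at only 3.66 to 4.82 CPM in sh-ctrl and 4.21 to 4.88 CPM in sh-KIF11 and was not called (0.06). SLC38A10 had 242, 231 and 204 CPM against 183, 174 and 173 CPM (-0.35 ± 0.05, adjusted p = 2.32e-07 by edgeR), and this call was lost with limma on log2(FPKM + 1) (-0.11, adjusted p = 0.109) and log2(FPKM + 0.1) (-0.12, adjusted p = 0.106). SLC38A11 was not called at -0.25.

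SLC38A6, an incompletely characterised member of the family, had 10.2, 10.9 and 11.4 CPM in sh-ctrl and 16.0, 16.3 and 16.7 CPM in sh-KIF11. It rose 1.51-fold without overlap (0.59 ± 0.10, adjusted p = 1.44e-06 by edgeR), and 245 of its exon bases are shared with TRMT5 on the opposite strand. The lysosomal members rose less. SLC38A9, the arginine sensor of the lysosome, had 17.9, 19.1 and 23.8 CPM against 25.5, 25.7 and 21.0 CPM, and the groups overlapped. Its call at 0.25 ± 0.09 (adjusted p = 0.0173 by edgeR) was lost without any one of 4 libraries, the first or second of sh-ctrl (adjusted p = 0.121 and 0.0735) or the first or second of sh-KIF11 (adjusted p = 0.0756 and 0.0942). SLC38A7 (SNAT7), which releases glutamine from lysosomes, had 37.4, 38.1 and 33.0 CPM against 40.5, 44.0 and 40.9 CPM, without overlap. It was called higher at 0.21 ± 0.07 (adjusted p = 0.0125 by edgeR), and not without the third sh-ctrl library (0.14, adjusted p = 0.0559) or the second sh-KIF11 library (0.17, adjusted p = 0.0892).

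The glutamate and neutral amino acid exchangers of the SLC1A family had 4 tested genes, with 2 called lower and 2 not called. Over all tested genes 34.7% were called lower. SLC1A5 (ASCT2), the glutamine exchanger, had 191, 181 and 164 CPM in sh-ctrl and 147, 155 and 158 CPM in sh-KIF11. The groups did not overlap, and the log2 fold change of -0.22 ± 0.05 (adjusted p = 0.000360 by edgeR) turned to 0.01 with library totals alone and was -0.01 and not called with limma on log2(FPKM + 1). SLC1A4 (ASCT1, for serine and alanine) had 86.9, 90.3 and 78.9 CPM against 68.8, 72.3 and 69.2 CPM (-0.28 ± 0.06, adjusted p = 3.68e-05 by edgeR), and with totals alone it was -0.05 and not called. With limma it was not called either, at adjusted p = 0.159 on log2(FPKM + 1) and 0.156 on log2(FPKM + 0.1). SLC1A2 (EAAT2), a glutamate carrier best known from astrocytes, had 39.0, 47.8 and 48.0 CPM against 40.6, 39.6 and 41.1 CPM. The first sh-ctrl library lay just under all 3 sh-KIF11 values and the other 2 above them, and SLC1A2 was not called (-0.15 ± 0.07, adjusted p = 0.0667 by edgeR), although without that library it was lower at -0.24 (adjusted p = 0.00396), and it turned to 0.08 with library totals alone. SLC1A7, at 0.648 to 1.16 CPM, was not called.

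Of the facilitated carriers of branched-chain and aromatic amino acids, SLC43A1 (LAT3) had 90.7, 86.7 and 80.4 CPM in sh-ctrl and 64.7, 65.6 and 62.9 CPM in sh-KIF11 and was called lower (-0.42 ± 0.06, adjusted p = 3.28e-08 by edgeR). SLC43A2 (LAT4) had 37.1, 41.4 and 34.2 CPM against 47.9, 42.2 and 46.5 CPM and was called higher (0.28 ± 0.07, adjusted p = 0.00127 by edgeR). Neither pair of groups overlapped, though for SLC43A2 the closest libraries nearly met. Of the SLC36A carriers, SLC36A4 (PAT4) had 10.4, 11.6 and 9.78 CPM against 14.2, 13.96 and 12.98 CPM and was called higher (0.37 ± 0.11, adjusted p = 0.00199 by edgeR), without overlap. SLC36A1 (PAT1), found on lysosomes, overlapped between groups and was not called at -0.11, a value that turned to 0.12 with library totals alone.

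How the libraries were scaled set the direction of the small changes. TMM factors were 0.922 to 0.926 in sh-ctrl and 1.08 to 1.09 in sh-KIF11. Scaling by library totals alone moved the median over all tested genes from 0.00 to 0.24 on the log2 scale, where TMM had split the calls over all tested genes into 4254 higher and 4294 lower. With totals alone the median of the 36 genes was -0.0044. A change of scaling shifts all genes by nearly the same amount, so it cannot test how far the 36 genes lie from the rest. Among the 12 genes called with at least a 1.5-fold change, 10 kept their call and direction in all alternatives tried, the exceptions being SLC6A2 and SLC7A9.

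**Figure D4:**
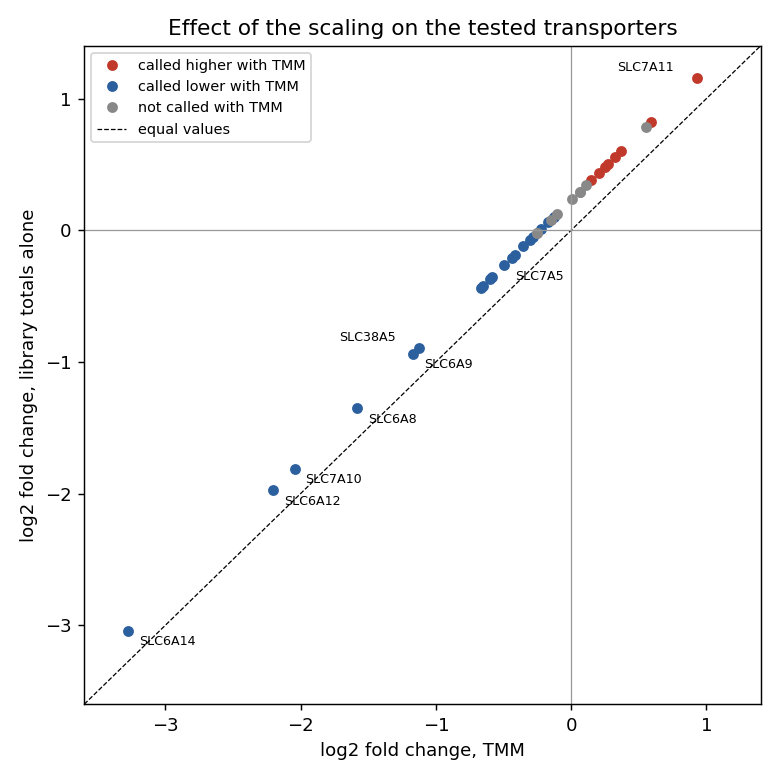
Log2 fold change of each of the 36 tested genes with library totals alone (y) against TMM scaling (x), with equal values on the dashed line. All points lie above the line by about the shift of the median of all genes, and points between the axes at 0 are the small changes whose direction depends on the scaling.

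Genes that work with these carriers were examined by list, as counts and medians. Over all tested genes 69.1% were called, 34.7% lower and 34.4% higher. Of 19 other amino acid and peptide transport genes, 13 were tested, 3 were called higher and 5 lower, with a median log2 fold change of -0.05. The called genes were 61.5% of those tested, under the share of all tested genes. CLTRN (collectrin), a chaperone of SLC6A19 and related carriers in kidney, had 2.35, 2.38 and 2.07 CPM in sh-ctrl and 4.73, 6.52 and 5.53 CPM in sh-KIF11 (log2 fold change 1.30, adjusted p = 1.17e-07 by edgeR), while SLC6A19 itself had no more than 5 counts. ARL6IP5, which binds the glutamate carrier of neurons, rose by 0.91 on the log2 scale, and the lysosomal sialic acid carrier SLC17A5 fell by 0.54.

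Of 29 genes for amino acid sensing at the lysosome, all were tested, 9 were called higher and 10 lower, with a median of -0.01. The 65.5% called were near the 69.1% of all tested genes. SESN2 (sestrin 2, a leucine sensor) had 55.6, 50.4 and 50.2 CPM in sh-ctrl and 93.5, 92.4 and 98.1 CPM in sh-KIF11 (0.86, adjusted p = 1.09e-16 by edgeR), and SESN3 went from 1.05 to 1.35 CPM up to 5.73 to 6.33 CPM (2.31, adjusted p = 7.91e-13 by edgeR). SESN1 was not called (-0.07). Of the Rag GTPases, RRAGB (0.96), RRAGC (0.32) and RRAGD (2.39, from 0.222 to 0.296 CPM up to 1.11 to 1.47 CPM) were called higher and RRAGA (-0.25) lower. RRAGD had only 4, 4 and 5 counts in sh-ctrl against 28, 23 and 29 in sh-KIF11. The RRAGA change is close in size to the shift of 0.24 that library totals alone give. Of the subunits that anchor the Rag GTPases on the lysosome, LAMTOR3 rose by 0.61 and LAMTOR4 fell by 0.63. LAMTOR1 (-0.15), LAMTOR2 (-0.20) and LAMTOR5 (-0.21) were called lower with TMM, at sizes under the shift of 0.24 that library totals alone give. The GATOR1 subunits NPRL2 (-0.58) and NPRL3 (-0.18, also under that shift) were called lower, as was SEC13 (-0.68), a subunit of the GATOR2 complex and of the COPII coat. CASTOR1, an arginine sensor, was not called (-0.03).

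Of 18 genes of the amino acid shortage response, 17 were tested. With TMM 3 were called higher and 9 lower, with a median of -0.28. The 70.6% called were near the 69.1% of all tested genes. With library totals alone 15 of the 17 were called in either direction, against 8994 of all 12369 tested genes. Limma on log2(FPKM + 1) called 16 of the 17 in either direction, against 8231 of all tested genes. These counts do not say whether the added calls were higher or lower. ATF4, the transcription factor that induces many genes of this list, had 495, 508 and 527 CPM in sh-ctrl and 311, 324 and 331 CPM in sh-KIF11 (-0.66, adjusted p = 8.16e-16 by edgeR). TRIB3, a pseudokinase induced by ATF4, had 247, 223 and 218 CPM against 113, 109 and 115 CPM (-1.03, adjusted p = 8.88e-21 by edgeR). The serine synthesis enzymes PHGDH, PSAT1 and PSPH fell by 0.91, 0.66 and 0.53, and SHMT2, the mitochondrial serine hydroxymethyltransferase, fell by 0.78. The 3 genes called higher were the transcription factor ATF3 (0.56), the stress-induced regulator NUPR1 (0.51) and EIF2AK4 (0.35), the GCN2 kinase that senses uncharged tRNA. ASNS, asparagine synthetase, had 55.5, 48.0 and 56.7 CPM against 51.4, 53.2 and 64.0 CPM, overlapped and was not called (0.08, adjusted p = 0.364 by edgeR). This value is under the shift of 0.24 that library totals alone give. SLC3A2, SLC7A1 and SLC38A1, whose windows hold TGATGNAA, had log2 fold changes of -0.30, -0.17 and -0.13, of which the last 2 turned with library totals alone, and SLC7A11, commonly listed with ATF4 targets, had 0.93.

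Of 11 genes of glutamine and glutathione use, all were tested, 4 were called higher and 6 lower, with a median of -0.29. The called genes were 90.9% of the list, against 69.1% of all tested genes. Both subunits of glutamate-cysteine ligase, the enzyme that uses the cysteine brought in through SLC7A11 for glutathione, rose. GCLM, the modifier subunit, had 36.8, 38.1 and 38.5 CPM in sh-ctrl and 99.5, 104 and 114 CPM in sh-KIF11 (1.49, adjusted p = 6.79e-24 by edgeR), and GCLC, the catalytic subunit, had 110, 105 and 132 CPM against 152, 162 and 164 CPM (0.47, adjusted p = 5.00e-09 by edgeR). The groups were apart for both. Of the other genes of glutathione use on the list, GSS was not called (0.02, adjusted p = 0.713 by edgeR). GGT1 was called lower (-0.32, adjusted p = 9.45e-06 by edgeR). GLUL, glutamine synthetase, had 338, 356 and 330 CPM against 171, 174 and 171 CPM (-0.99, adjusted p = 3.16e-21 by edgeR), and GLUD1, glutamate dehydrogenase, fell by 0.81.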

How the data were processed

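Poly(A) RNA of HepG2 cells was sequenced as 3 sh-ctrl and 3 sh-KIF11 libraries with a stranded kit. The authors deposited a table of raw read counts per gene and a table of FPKM. The submitters' processing notes name bcl2fastq 1.8.4, Trimmomatic, HISAT2 2.1.0, Cufflinks 2.2.1, HTSeq 0.9.1, DESeq and build GRCh38, and the strand setting of the counting was not given in the sources used here. Columns named shRNA were taken as sh-KIF11, since the labels hold no other hairpin group.

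Counts were tested in R 4.3.3 with edgeR 4.0.16 (low counts filtered by edgeR's default rule, TMM, quasi-likelihood F test on the group alone, Benjamini-Hochberg adjustment over 12369 genes, called at adjusted p under 0.05). The standard error is the log2 fold change over the square root of F. An exact permutation test of 3 against 3 libraries cannot go below p = 0.1 (two-sided) and was not used for calls. Alternatives were RLE, upper-quartile and totals-only scaling, other filters, DESeq2 1.42.0, limma 3.58.1 on log2(FPKM + 1) and log2(FPKM + 0.1), a replicate block, leaving out each library and an adjusted p of 0.01. The edgeR script was tested on simulated data. Libraries of a group differed by more than counting noise (chi-square per degree of freedom 2.68 to 7.97), so none was a duplicate.

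Genes named with values were those called with at least a 1.5-fold change, the 10 with the highest FPKM, the highest of each family, a list of textbook members, and untested genes with at least 5 counts; the remaining tested genes are given briefly. The members and lists were chosen with earlier results of these data known. Gene and promoter positions are from RefSeq (GRCh38.p14) and exon overlaps from GENCODE 29. Beside the pairs named with their values, exon bases are shared by SLC7A10 with LRP3 (204), SLC6A9 with CCDC24 (404) and SLC6A6 with GRIP2 (239). They are shared by SLC1A5 with AC008622.2 (780), SLC38A10 with AC027601.4 (610) and SLC6A2 with AC136621.1 (977). The same holds for SLC7A5 with AC126696.2 (271), SLC7A6 with AC020978.9 (845) and SLC1A7 with AL445183.2 (216). Shorter shares of other tested genes are not listed. SLC7A5 and SLC6A6 also have annotated pseudogene copies, so the counts of all these genes are uncertain to that extent. Among the genes without a promoter window were SLC1A2, SLC38A3, SLC3A1, SLC43A3, SLC6A12, SLC6A15, SLC6A2, SLC6A3, SLC6A6, SLC7A11, SLC7A13, SLC7A2, SLC7A3 and SLC7A4. The values of 1 untested gene are not reported here.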

Additional observations from a re-analysis of the deposited data

How the results depend on the processing

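Of the 36 tested genes, 16 kept their call and direction in all alternatives. DESeq2 and RLE changed no call of the 36. Leaving out 1 library gave 24 to 27 called genes, 6 to 8 higher and 18 to 20 lower, with 6 changed at least 2-fold each time. The median of the 36 genes, -0.24, was 0.0094 with limma on log2(FPKM + 1) and 0.012 with limma on log2(FPKM + 0.1). The medians of all tested genes in these 2 fits were 0.12 and 0.17. These fits called 11 genes lower each, in place of 19, and the first called 3 genes at 2-fold or more, in place of 6. At an adjusted p of 0.01, 5 genes were called higher, in place of 8. Directions turned, in genes with small changes, with library totals alone for SLC1A2 (0.079), SLC1A5 (0.010), SLC36A1 (0.12), SLC38A1 (0.10) and SLC7A1 (0.063). With limma on log2(FPKM + 1) they turned for SLC1A2 (0.010), SLC1A7 (0.014), SLC36A1 (0.014), SLC38A1 (0.020), SLC38A11 (0.025) and SLC7A1 (0.0085), and on log2(FPKM + 0.1) for SLC1A2 (0.014), SLC1A7 (0.066), SLC36A1 (0.024), SLC38A1 (0.021), SLC38A11 (0.060) and SLC7A1 (0.0089). Without a filter on low counts SLC7A6OS turned to -0.0037. Leaving out 1 library gave -0.053 to 0.14 for SLC38A4 and -0.026 to 0.061 for SLC7A6OS. Upper-quartile scaling, which moved the median of all tested genes to 0.08, called 5014 of all tested genes higher and 3563 lower, and limma called 5635 higher and 2596 lower with a pseudocount of 1 and 5666 and 2597 with 0.1. The cause of these differences was not tested. A fit with the replicate number as a block called 27 genes, with no change of call among the 36. Same-numbered libraries did not deviate together (correlations over genes of 0.03, -0.02 and -0.0025), so no shared effect of the number was seen. The labels do not say whether same-numbered libraries were prepared together.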
